A study of Mus musculus with 20 samples.

Results

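Collagens are the proteins of the fibres, sheets and filaments that hold connective tissue together, and the values given here are those of all collagen chain genes on the array in limbs with and without Lmx1b. The members were the probe sets whose platform gene symbol is Col, a number, a and a number, and nothing more, with the probe set of highest mean intensity standing for each gene. This rule, which uses the symbol and no comparison of groups, gave 46 probe sets and 44 genes of 19936 genes tested. By textbook class 11 of them are fibrillar, 9 form networks, 9 are FACIT collagens (fibril-associated, with interrupted triple helices) and 15 belong to other classes. Single limbs of mouse embryos of the 129Sv strain at embryonic day 13.5 were each hybridised to 1 Affymetrix whole-transcript array. There were 20 arrays, 5 in each of 4 groups, since forelimbs and hindlimbs were each taken from wild-type and from Lmx1b -/- embryos, the latter called knockout here. Single arrays are named by group and replicate number, WF1 to WF5 for wild-type forelimbs, KF1 to KF5 for knockout forelimbs, WH6 to WH10 for wild-type hindlimbs and KH6 to KH10 for knockout hindlimbs. The whole limb gave the RNA, so dorsal and ventral sides are averaged, and the labels do not describe the Lmx1b allele beyond -/- and loss of function. All levels and changes are on the log2 scale of the deposited intensities, and levels are never compared between genes, since each probe set has its own brightness.

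A collagen molecule is a triple helix of chains, which cells hydroxylate, fold, secrete and trim before fibrils assemble. Types I, III and V co-assemble into the fibrils of skin, tendon, fascia and bone, types II, IX and XI into those of cartilage, and type IV into the sheet of basement membranes. FACIT collagens sit on fibril surfaces, and type VI makes beaded filaments around muscle fibres and other cells. Lmx1b encodes a LIM-homeodomain transcription factor that sets dorsal identity in limb mesenchyme, and the series title asks which limb genes it controls. The type IV chain genes Col4a3 and Col4a4 have been described as Lmx1b targets in kidney podocytes.

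The labels held up in the genes that mark them. Lmx1b itself was lower in knockouts in both limb types (log2 change -0.55 over both, SE 0.049, limma adjusted p = 2.63e-07), and where its probes lie relative to the deleted part was not analysed here. In wild type the forelimb gene Tbx5 was -3.77 in hindlimb against forelimb, and the hindlimb genes Pitx1, Tbx4 and Isl1 were 3.09, 1.71 and 1.17. Array medians lay between 4.84 and 4.99, and no 2 arrays were identical. Y-linked transcripts marked 13 arrays as male and 7 as female: all 5 wild-type forelimbs were male, 2 of 5 knockout forelimbs were male, and each hindlimb group held 3 males and 2 females. Whether limbs of a group were taken from different embryos is not in the labels, and the p-values describe limb-to-limb spread only. In whole-limb RNA, fewer cells of a type and less RNA per cell cannot be told apart.

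Promoter sequence was at hand for 35 of the 44 genes, as 38 windows of 300 bases from 250 before to 50 after a RefSeq start site on GRCm38.p6. Col1a1, Col2a1, Col4a3, Col5a2, Col9a3, Col12a1, Col14a1, Col22a1 and Col26a1 had no window and were not searched. Several genes that passed the test below are thus not covered by the motif counts. Windows of a whole chromosome and any not 300 bases long were left out of the search for all genes. TAATTA, a core that LIM-homeodomain proteins can bind and that reads the same on both strands, was in 2 of the 38 windows (5.26%), against 5.29% of all 32851 windows searched. Those 2 belonged to Col11a2, which encodes a chain of the cartilage fibril collagen XI, and Col10a1, which encodes the collagen of hypertrophic cartilage. TATAAA, the TATA box letters searched on both strands, was in 5 windows (13.2%, against 13.6% of all), and CCAAT, also on both strands, in 13 (34.2%, against 37.4% of all). The 150 bases before the start site are shown for the 2 windows with TAATTA, and for Col1a2 and Col3a1 as fibrillar genes that were lower in knockout forelimbs, all on the plus strand, with these letters in capitals.
Col11a2 chr17:34038988-34039137: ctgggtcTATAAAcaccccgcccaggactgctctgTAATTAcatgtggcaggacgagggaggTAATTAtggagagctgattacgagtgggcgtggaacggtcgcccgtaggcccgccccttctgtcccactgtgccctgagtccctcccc
Col10a1 chr10:34389831-34389980: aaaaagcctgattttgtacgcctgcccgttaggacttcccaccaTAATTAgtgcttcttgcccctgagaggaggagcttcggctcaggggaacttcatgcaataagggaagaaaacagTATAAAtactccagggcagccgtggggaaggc
Col1a2 chr6:4505468-4505617: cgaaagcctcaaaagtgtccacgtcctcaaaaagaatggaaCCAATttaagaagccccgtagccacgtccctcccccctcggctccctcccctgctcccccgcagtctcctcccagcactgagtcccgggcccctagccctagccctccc
Col3a1 chr1:45311388-45311537: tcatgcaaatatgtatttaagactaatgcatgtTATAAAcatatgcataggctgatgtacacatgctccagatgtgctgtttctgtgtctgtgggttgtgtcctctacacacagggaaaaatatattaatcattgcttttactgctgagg
TAATTA lay 115 and 88 bases before the Col11a2 start, where TATAAA lay 143 before it. In Col10a1, whose stretch lies within the gene Nt5dc1, TAATTA lay 106 and TATAAA 32 bases before the start. Col1a2 held CCAAT 109 bases before its start and Col3a1 TATAAA 117 before its own. A match is a description of the letters, and a window without TAATTA shows only that these letters are not in it. Neither Col11a2 (log2 change -0.09 over both limb types, limma adjusted p = 0.553) nor Col10a1 (-0.14, adjusted p = 0.286) passed the test between genotypes.

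Over both limb types, 7 of 44 collagen genes (15.9%) fell in knockouts and none rose, against 1.57% of all genes lower and 0.466% higher (limma, adjusted p under 0.05 over all genes, on the mean of the forelimb and hindlimb effects). The 7 were the fibrillar genes Col3a1, Col5a1 and Col5a2, the FACIT genes Col12a1 and Col14a1, and Col6a1 and Col23a1 of the other classes. None of the 9 network genes passed. The median change over the 44 was -0.11, against -0.00 over all genes, and 38 of 44 changes (86.4%) were below 0, against 51.1% of all genes. Without WF1 the count was 11, with the 13 male arrays only it was 1, Col23a1 (-0.32 with all arrays), and with the mean of 14 skeletal muscle markers as a covariate it was 1, Col12a1.

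The genotype change was more negative in forelimbs than in hindlimbs in all but 4 of the 44 members. It was the more negative in hindlimbs in those 4 (9.09%), against 52.2% of all genes. In forelimbs 7 collagen genes fell and none rose, against 1.03% and 0.241% of all genes: Col1a2, Col3a1, Col5a1, Col5a2, Col12a1, Col6a1 and Col23a1. The median change of the 44 was -0.17 in forelimbs, against 0.00 over all genes, and 41 of 44 were below 0, against 49.6% of all genes. In 6 members, Col1a2, Col3a1, Col5a2, Col5a3, Col11a1 and Col12a1, every knockout forelimb lay below every wild-type forelimb, as in 1.72% of all genes. In hindlimbs no collagen gene passed the test, against 0.231% of all genes, and 5 had an unadjusted limma p under 0.05, 4 lower and 1 higher, against 5.75% of all genes. The hindlimb median was -0.04, and the groups did not overlap in 1 member, Col23a1, against 0.903% of all genes not overlapping in that direction.

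The test of the difference itself, the hindlimb effect minus the forelimb effect, called no collagen gene and 0.0201% of all genes. Of the members, 5 had an unadjusted p under 0.05 in that limma test, all with the hindlimb effect less negative, against 3.63% of all genes. The smallest was that of Col12a1, with a difference of 0.62 (95% interval 0.21 to 1.02, limma adjusted p = 1). So a call in forelimbs and none in hindlimbs does not show for any single member that the genotype effects differ. The forelimb count was also the least steady of the counts: it was 11 without WF1, 4 without WH7 or KH10, 3 without WF2, WF3, WH10, KF1, KF5 or KH8, and 2 without WF4, WF5 or KF4. Adding the Y-linked level as a covariate gave 3, and the count was 0 with male arrays only (5 wild-type and 2 knockout forelimbs), 0 with the muscle covariate and 4 in a fit of the forelimb arrays alone.

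**Figure D1:**
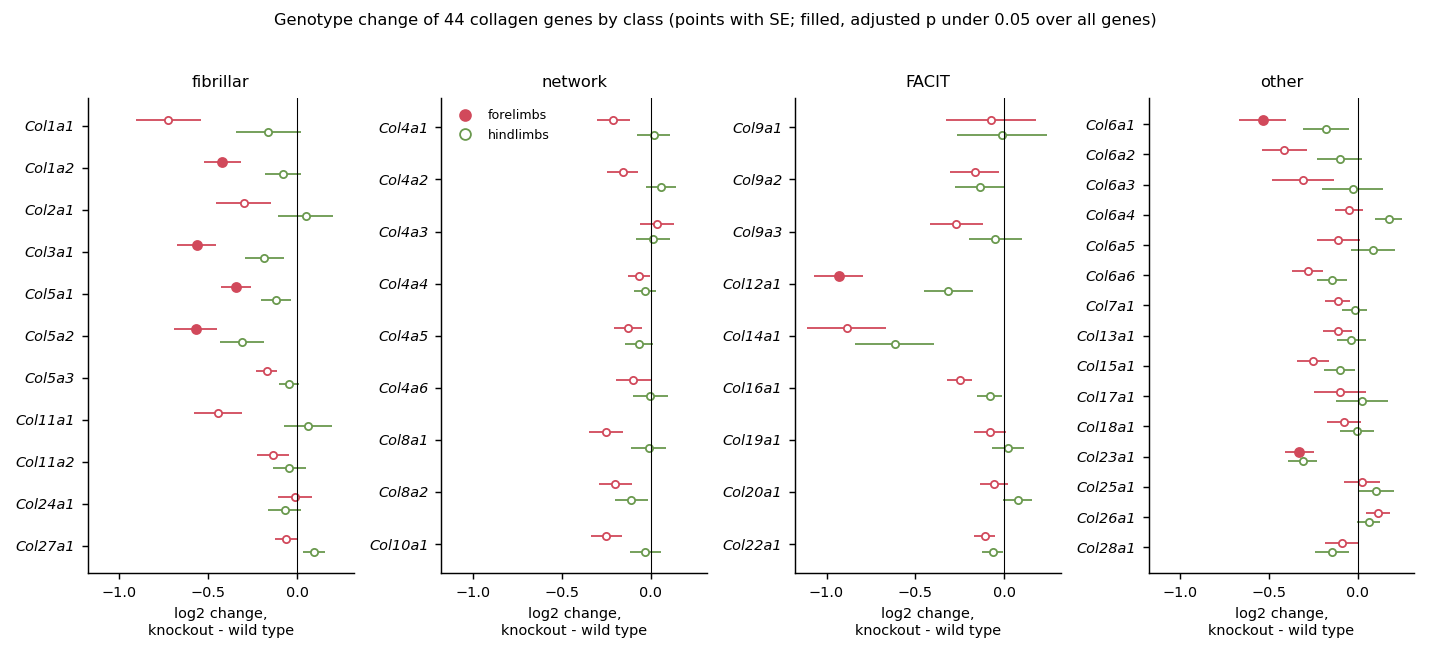
Log2 change, knockout minus wild type, of each of the 44 collagen genes (rows) in forelimbs (red) and hindlimbs (green), in 4 panels by class, with bars of 1 SE and filled points for adjusted p under 0.05 over all genes. The filled points are 7 forelimb changes, from -0.93 for Col12a1 to -0.33 for Col23a1, and no hindlimb change is filled.

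Among the fibrillar genes, 4 of 11 fell in knockout forelimbs (against 1.03% of all genes) and all 11 forelimb changes were below 0 (against 49.6%), with a median of -0.34. The class mean over its 11 genes was 7.77 ± 0.075 (SD over 5 arrays, as for all means here) in wild-type forelimbs, 7.43 ± 0.11 in knockout forelimbs, 7.53 ± 0.12 in wild-type hindlimbs and 7.46 ± 0.15 in knockout hindlimbs. Arrays are listed below by their replicate number in the labels, and the order has no other meaning.

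Col3a1 (probe set 10346015) encodes the type III chain of stretchable tissues and vessels. In wild-type forelimbs it measured 10.20, 10.29, 10.48, 10.56 and 10.57, and in knockout forelimbs 9.96, 9.95, 10.05, 9.56 and 9.77. Hindlimbs gave 10.04, 10.28, 10.33, 9.88 and 10.36 in wild type and 9.90, 10.28, 9.94, 9.87 and 9.96 in knockouts. The forelimb groups did not overlap, whereas in hindlimbs 4 knockout arrays lay near the low end of wild type and replicate 7 stood within the upper wild-type values. Col3a1 fell by 0.56 in forelimbs (SE 0.11, limma adjusted p = 0.00826), a 1.48-fold difference, and by 0.37 over both limb types (SE 0.077, adjusted p = 0.00965). Both calls held without any single array. With the male arrays alone the forelimb change was -0.56 (adjusted p = 0.238), and with the muscle covariate -0.20 (adjusted p = 0.593).

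Col5a2 (probe set 10354309) encodes a type V chain, and type V nucleates fibrils of type I. Wild-type forelimbs measured 8.06, 8.31, 8.24, 8.43 and 8.50 and knockout forelimbs 7.84, 7.75, 8.02, 7.48 and 7.60. In hindlimbs wild type measured 7.91, 8.05, 8.12, 7.55 and 8.07 and knockouts 7.57, 7.96, 7.62, 7.66 and 7.34. The forelimb groups did not overlap, and in hindlimbs wild-type replicate 9 and knockout replicate 7 crossed into the other group. The gene fell by 0.44 over both limb types (SE 0.086, limma adjusted p = 0.00662) and by 0.57 in forelimbs (SE 0.12, adjusted p = 0.0176), with -0.31 in hindlimbs (adjusted p = 0.735). The call over both limb types held without any single array. That in forelimbs was lost without WF4 (adjusted p = 0.0591), WF5 (0.0693) or KF4 (0.0739).

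The partner chain gene Col5a1 (probe set 10470462) moved less. It measured 6.84, 7.0, 7.02, 7.04 and 7.21 in wild-type forelimbs and 6.73, 6.84, 6.79, 6.50 and 6.54 in knockout forelimbs, and the groups touched at 6.84. In hindlimbs it measured 6.65, 6.77, 6.91, 6.66 and 6.89 in wild type and 6.59, 6.84, 6.64, 6.49 and 6.73 in knockouts, which overlapped. Col5a1 fell by 0.34 in forelimbs (SE 0.084, limma adjusted p = 0.0447) and by 0.23 over both limb types (SE 0.059, adjusted p = 0.0461). The call over both was lost in 14 of 20 leave-one-out fits (adjusted p from 0.0584 to 0.0953) and kept without WF1, WH6, WH9, KF2, KF3 or KH7. In forelimbs it was lost in 11 of 20 (0.0519 to 0.155), those without any 1 of WF2 to WF5, WH7, WH10, KF1, KF4, KF5, KH8 or KH10.

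Both chains of type I collagen, the main fibril of bone, tendon and skin, had their highest values in wild-type forelimbs. Col1a1 (probe set 10380419) measured 9.73, 10.30, 10.37, 10.38 and 10.65 in wild-type forelimbs and 9.69, 9.62, 9.93, 9.05 and 9.53 in knockout forelimbs. Its hindlimb values were 9.37, 9.48, 9.78, 8.94 and 9.74 in wild type and 9.33, 9.77, 9.34, 9.02 and 9.03 in knockouts. The forelimb groups overlapped through wild-type replicate 1 and knockout replicate 3 only. The change of Col1a1 was -0.72 in forelimbs (SE 0.18, 95% interval -1.10 to -0.34, limma adjusted p = 0.0534) and -0.44 over both limb types (adjusted p = 0.0863), so neither passed. In forelimbs it did pass without WF1 (log2 change -0.86, adjusted p = 0.0119), KF3 (0.0296), WH9 (0.0346) or KH7 (0.0397), and over both limb types without WF1 (0.0251), WH9 (0.0301) or KH7 (0.0374).

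Col1a2 (probe set 10536220), the second type I chain gene, had a tighter spread. Its values were 10.68, 10.92, 10.94, 11.04 and 11.10 in wild-type and 10.58, 10.62, 10.65, 10.24 and 10.48 in knockout forelimbs, without overlap. In hindlimbs they were 10.45, 10.57, 10.71, 10.21 and 10.67 in wild type and 10.35, 10.72, 10.45, 10.38 and 10.31 in knockouts, which overlapped. It fell by 0.42 in forelimbs (SE 0.10, limma adjusted p = 0.0446), a 1.34-fold difference, and changed by -0.25 over both limb types (adjusted p = 0.085, not past the test). The forelimb call was lost in 14 of 20 leave-one-out fits (adjusted p from 0.0508 to 0.156). It was kept without WF1, WH8, WH9, KF3, KH6 or KH7. Over both limb types it passed without WF1 (adjusted p = 0.0347), WH9 (0.025) or KH7 (0.0342).

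The cartilage fibril genes did not pass. Col2a1 (probe set 10432045), the type II chain gene and a defining gene of cartilage, measured 8.50, 8.52, 8.05, 8.19 and 7.73 in wild-type forelimbs and 8.03, 7.67, 8.0, 7.82 and 7.98 in knockout forelimbs. In hindlimbs it measured 7.88, 8.06, 7.81, 7.99 and 7.97 in wild type and 7.34, 8.39, 8.11, 8.13 and 7.97 in knockouts. All knockout forelimbs but replicate 2 lay within the wild-type range, and the knockout hindlimbs spanned more than the wild-type ones. Over both limb types the change of Col2a1 was -0.13 (95% interval -0.35 to 0.10, limma adjusted p = 0.64). The type XI chain genes Col11a1 and Col11a2 changed by -0.44 (adjusted p = 0.131) and -0.14 (0.571) in forelimbs, and in Col11a1 the forelimb groups did not overlap. The minor fibrillar genes Col5a3, Col24a1 and Col27a1 changed by -0.17, -0.01 and -0.06 in forelimbs, none past the test.

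**Figure D2:**
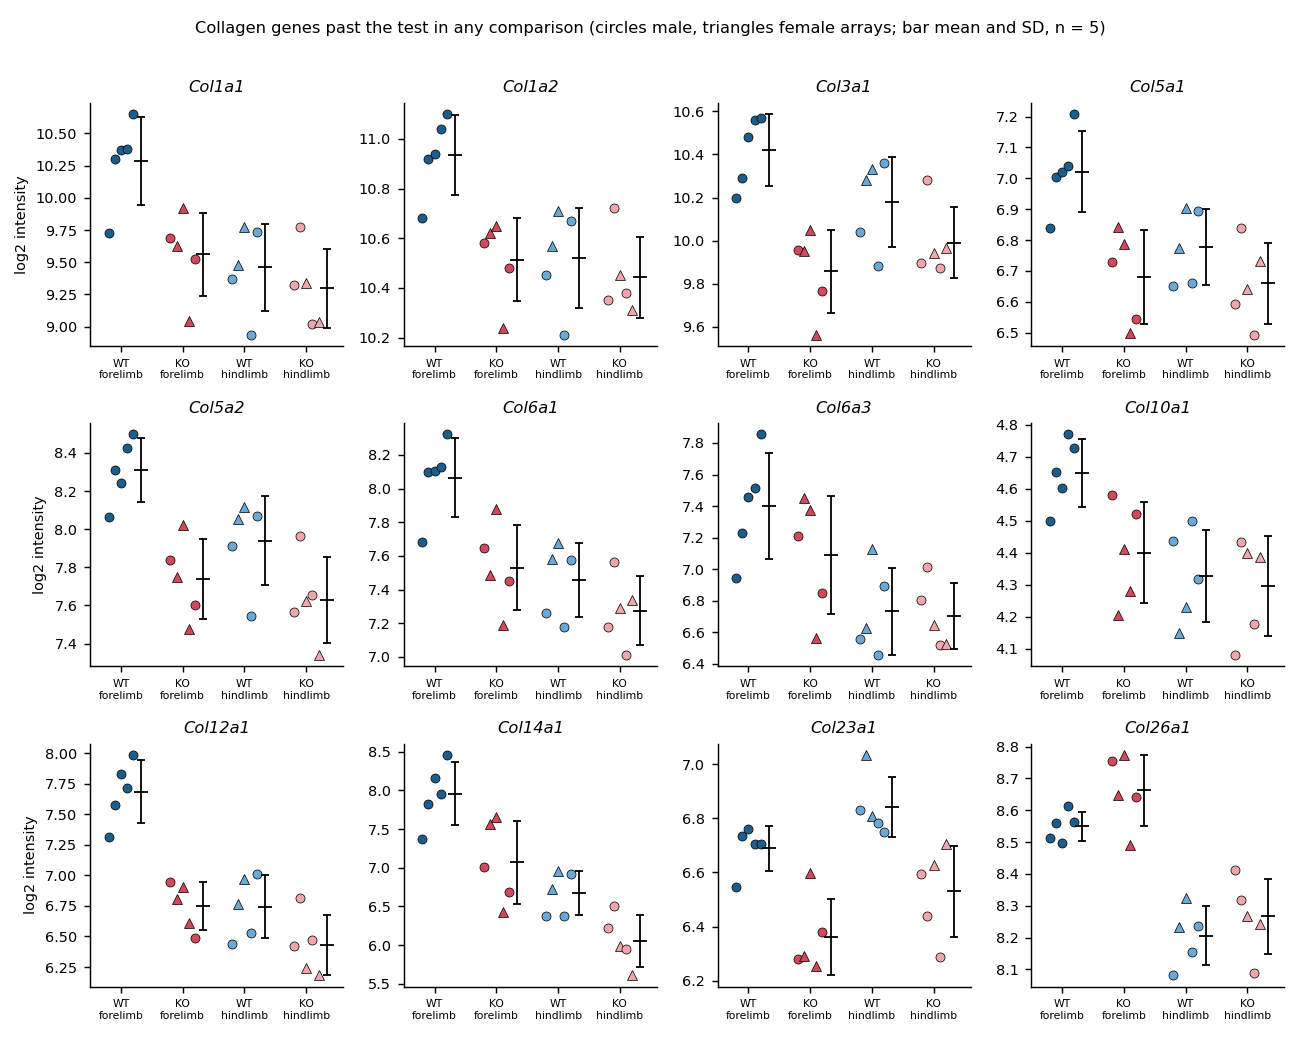
Log2 intensity of the 12 collagen genes that passed the test in any comparison, 1 panel a gene, with 1 point per array (circles male, triangles female) in wild-type (WT) and knockout (KO) forelimbs and hindlimbs and a bar for mean and SD (n = 5). Wild-type forelimbs have the highest group mean in all panels but those of Col23a1 and Col26a1, an order that the choice of genes past the test in part fixes.

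Of the 9 FACIT genes, 2 fell over both limb types (against 1.57% of all genes). They were the pair found on type I fibrils of tendon, fascia and skin. Col12a1 (probe set 10595211) measured 7.32, 7.57, 7.83, 7.72 and 7.99 in wild-type forelimbs and 6.95, 6.81, 6.91, 6.61 and 6.49 in knockout forelimbs. Its hindlimb values were 6.44, 6.77, 6.97, 6.53 and 7.01 in wild type and 6.42, 6.82, 6.25, 6.47 and 6.19 in knockouts. The forelimb groups did not overlap, with the lowest wild-type array at 7.32 and the highest knockout array at 6.95, and 3 of 5 knockout hindlimbs lay below all wild-type hindlimbs. Col12a1 fell by 0.93 in forelimbs (SE 0.14, limma adjusted p = 0.000519), a 1.91-fold difference. Over both limb types it fell by 0.62 (SE 0.10, adjusted p = 0.000674), and in hindlimbs the change was -0.31 (adjusted p = 0.823). Both calls held without any single array. With the muscle covariate the call over both limb types held (-0.40, adjusted p = 0.0107) and that in forelimbs was lost (-0.52, 0.0851), and with male arrays only both were lost (-0.53, 0.159, and -0.97, 0.055).

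Col14a1 (probe set 10424140) had the largest spread within groups of the genes that passed. Wild-type forelimbs measured 7.37, 7.82, 8.16, 7.96 and 8.46 and knockout forelimbs 7.01, 7.57, 7.65, 6.42 and 6.69. In hindlimbs wild type measured 6.38, 6.73, 6.95, 6.37 and 6.92 and knockouts 6.23, 6.50, 5.99, 5.94 and 5.61. Knockout forelimb replicates 1, 4 and 5 lay below all wild-type forelimbs, and 4 of 5 knockout hindlimbs lay below all wild-type hindlimbs. It fell by 0.75 over both limb types (SE 0.16, limma adjusted p = 0.0117), a 1.68-fold difference that held without any single array. Within 1 limb type it did not pass, at -0.89 in forelimbs (adjusted p = 0.0512) and -0.62 in hindlimbs (0.605). The forelimb change did pass without WF1 (adjusted p = 0.0168), KF2 (0.0376) or KF3 (0.0168), or KH7 (0.0465). With male arrays only the change over both limb types was -0.72 (adjusted p = 0.101), and with the muscle covariate -0.44 (0.284).

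The other 7 FACIT genes did not pass. The cartilage genes Col9a1, Col9a2 and Col9a3, whose type IX molecule sits on type II fibrils, changed by -0.07, -0.17 and -0.27 in forelimbs. Col16a1, a minor fibril-associated chain gene, changed by -0.25 there (limma adjusted p = 0.0942). Col22a1, whose product lies at the junction of muscle and tendon, changed by -0.11 (adjusted p = 0.446), and Col19a1 and Col20a1 by -0.08 and -0.06.

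Type VI collagen, the beaded filament of the pericellular matrix, is built mainly from the products of Col6a1, Col6a2 and Col6a3. Col6a1 (probe set 10370210) measured 7.68, 8.10, 8.10, 8.13 and 8.32 in wild-type forelimbs and 7.65, 7.49, 7.88, 7.19 and 7.45 in knockout forelimbs. Hindlimbs gave 7.26, 7.58, 7.68, 7.18 and 7.58 in wild type and 7.18, 7.56, 7.29, 7.01 and 7.34 in knockouts. In forelimbs the groups overlapped through wild-type replicate 1 and knockout replicate 3, and in hindlimbs they overlapped more widely. Col6a1 fell by 0.54 in forelimbs (SE 0.13, limma adjusted p = 0.0447) and by 0.36 over both limb types (SE 0.093, adjusted p = 0.0472). Col6a2 and Col6a3 did not pass, at -0.41 (adjusted p = 0.13) and -0.31 (0.467) in forelimbs. The Col6a1 call over both limb types was lost in 15 of 20 leave-one-out fits (adjusted p from 0.0556 to 0.0989) and kept without WF1, WH6, WH9, KF3 or KH7. In forelimbs it was lost in 12 of 20 (0.0542 to 0.157) and kept without those arrays, WH8, KH6 or KH9.

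Col23a1 (probe set 10375838), which encodes a transmembrane collagen, had effects of like size in both limb types. It measured 6.55, 6.73, 6.76, 6.70 and 6.71 in wild-type forelimbs and 6.28, 6.29, 6.60, 6.25 and 6.38 in knockout forelimbs. In hindlimbs it measured 6.83, 7.04, 6.81, 6.78 and 6.75 in wild type and 6.59, 6.44, 6.63, 6.29 and 6.71 in knockouts. The forelimb groups overlapped through wild-type replicate 1 and knockout replicate 3, and the hindlimb groups did not overlap. Col23a1 fell by 0.32 over both limb types (SE 0.058, limma adjusted p = 0.0034), a 1.25-fold difference. In forelimbs it fell by 0.33 (SE 0.082, adjusted p = 0.047) and in hindlimbs it changed by -0.31 (SE 0.082, adjusted p = 0.183, the smallest of any member there), and the difference between these effects was 0.02 (95% interval -0.22 to 0.26). The call over both limb types held without any single array and with male arrays only (-0.35, adjusted p = 0.0277), and was lost with the muscle covariate (-0.29, 0.0587). The forelimb call was lost in 13 of 20 leave-one-out fits (adjusted p from 0.0506 to 0.148) and kept without WF1, WH7, KF3, KH6, KH7, KH9 or KH10.

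The remaining genes of these classes did not pass between genotypes. Col7a1, the anchoring fibril gene of skin, changed by -0.07 over both limb types, and Col17a1, a hemidesmosome gene of epidermis, by -0.04. The multiplexin genes Col15a1 and Col18a1, whose products lie at basement membranes, changed by -0.18 and -0.04, and the transmembrane collagen genes Col13a1 and Col25a1 by -0.08 and 0.06. Col26a1 changed by 0.09, the highest of the 44 (limma adjusted p = 0.406), and Col28a1, known from peripheral nerve, by -0.12. The smaller type VI genes Col6a4, Col6a5 and Col6a6 changed by 0.06, -0.01 and -0.21. Col6a5 and Col6a6 were the 2 members with more than 1 probe set: in forelimbs the unused Col6a6 probe set gave -0.40 against -0.28 for the one used, and the unused Col6a5 probe set 0.04 against -0.11.

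None of the 9 network collagen genes passed between genotypes in any limb type. Over all genes 1.27% were called in forelimbs, 0.231% in hindlimbs and 2.04% over both, so none of 9 does not set the class apart. The median network change in forelimbs was -0.16, with 8 of 9 below 0, beside -0.17 over the 44 members. Col4a3 (probe set 10347807), a chain gene of glomerular basement membrane, measured 4.41, 4.56, 4.29, 4.54 and 4.65 in wild-type forelimbs and 4.42, 4.70, 4.38, 4.44 and 4.67 in knockout forelimbs. Its hindlimb values were 4.68, 4.76, 4.60, 4.70 and 4.41 in wild type and 4.63, 4.49, 4.81, 4.41 and 4.86 in knockouts. The groups overlapped in both limb types, and the change over both was 0.02 (95% interval -0.12 to 0.16, limma adjusted p = 0.917). Its partner Col4a4 (probe set 10356088) measured 4.52, 4.55, 4.63, 4.64 and 4.75 in wild-type and 4.55, 4.49, 4.44, 4.55 and 4.72 in knockout forelimbs. Hindlimbs gave 4.81, 4.71, 4.71, 4.70 and 4.73 in wild type and 4.74, 4.59, 4.68, 4.72 and 4.78 in knockouts. These too overlapped, with a change of -0.05 (95% interval -0.14 to 0.04, adjusted p = 0.644). Both genes averaged under 5, near the array medians of 4.84 to 4.99, as did 8 of the 44 members, and at such levels an array may not register a change.

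The chain genes of basement membranes in general, Col4a1 and Col4a2, changed by -0.21 (limma adjusted p = 0.328) and -0.16 (0.459) in knockout forelimbs and by 0.02 and 0.06 in hindlimbs. Col4a5 and Col4a6 changed by -0.13 and -0.10 in forelimbs. The short-chain network genes Col8a1 and Col8a2, known from vessels and the eye, changed by -0.25 and -0.20, and Col10a1 by -0.25, none past the test. The class mean of the 9 was 5.61 ± 0.079 in wild-type and 5.46 ± 0.076 in knockout forelimbs, and 5.50 ± 0.016 and 5.48 ± 0.074 in hindlimbs.

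Several collagen genes lie next to each other in the genome, and 8 pairs are neighbours among protein-coding genes. Col3a1 and Col5a2 both fell in knockout forelimbs, by 0.56 and 0.57. Col6a1 fell by 0.54 beside -0.41 for Col6a2, which did not pass (limma adjusted p = 0.13). No gene of the other 6 pairs passed, and their forelimb changes ran from -0.28 to 0.03: Col4a1 with Col4a2, Col4a3 with Col4a4, Col4a5 with Col4a6, Col6a4 with Col6a5, Col6a5 with Col6a6, and Col9a1 with Col19a1.

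Between limb types, 8 of 44 collagen genes were lower in wild-type hindlimbs than in wild-type forelimbs and none higher, against 2.49% of all genes lower and 0.772% higher. They were the fibrillar genes Col1a1 and Col1a2, the network gene Col10a1, the FACIT genes Col12a1 and Col14a1, and Col6a1, Col6a3 and Col26a1. In knockouts 2 were lower, Col14a1 and Col26a1, and none higher, against 0.441% and 0.176% of all genes. The median limb-type change was -0.10 in wild type, against 0.02 over all genes, and 0.03 in knockouts, against 0.00. In 7 members (Col6a1, Col8a1, Col10a1, Col12a1, Col14a1, Col15a1 and Col26a1) every wild-type hindlimb lay below every wild-type forelimb, as in 3.2% of all genes, and in knockouts this held for 1, Col26a1, against 0.943%. The genotype comparison in forelimbs and the limb-type comparison in wild type share the 5 wild-type forelimb arrays, so a gene high in those arrays is lower in both.

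In wild type the largest limb-type differences were those of the 2 FACIT genes of type I fibrils, on the values listed above. Col14a1 fell by 1.29 from wild-type forelimb to wild-type hindlimb (SE 0.22, limma adjusted p = 0.00213), a 2.44-fold difference, and by 1.02 in knockouts (SE 0.22, adjusted p = 0.0334). The wild-type groups did not overlap, and in knockouts hindlimb replicate 7 crossed above forelimb replicate 4. Col12a1 fell by 0.94 in wild type (SE 0.14, adjusted p = 0.00042), without overlap, and changed by -0.32 in knockouts (adjusted p = 0.43). The wild-type calls held without any single array. The knockout call of Col14a1 was lost without KF1 (adjusted p = 0.0757), KF2 (0.093), KF3 (0.12), KH8 (0.0873), KH9 (0.0883) or KH10 (0.121), and without any 1 of them the collagen count in knockouts was 1.

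Col26a1 (probe set 10534640) was the 1 gene lower in hindlimbs of both genotypes without overlap. Wild-type forelimbs measured 8.51, 8.56, 8.50, 8.61 and 8.56 and wild-type hindlimbs 8.08, 8.23, 8.32, 8.16 and 8.24. Knockout forelimbs measured 8.75, 8.65, 8.77, 8.49 and 8.64 and knockout hindlimbs 8.41, 8.32, 8.27, 8.09 and 8.24. All hindlimbs lay below all forelimbs, and within a limb type the genotypes overlapped. The gene fell from forelimb to hindlimb by 0.34 in wild type (SE 0.066, limma adjusted p = 0.00482) and by 0.40 in knockouts (SE 0.066, adjusted p = 0.0043), and both calls held without any single array.

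Both type I chain genes were lower in wild-type hindlimbs, Col1a1 by 1.77-fold (log2 change -0.83, SE 0.18, limma adjusted p = 0.0136) and Col1a2 by 1.33-fold (-0.41, adjusted p = 0.0288). Forelimb replicate 1 overlapped the hindlimbs in both genes. In knockouts the changes were -0.26 (adjusted p = 0.705) and -0.07 (0.886). The Col1a1 call was lost without WF5 (0.0545) or WH9 (0.0543), and the Col1a2 call without WF3, WF4, WF5, WH6 or WH9 (adjusted p from 0.0657 to 0.107).

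In the type VI genes, Col6a1 fell by 0.61 from wild-type forelimb to hindlimb (SE 0.13, limma adjusted p = 0.0115), a call that held without any single array. Col6a3 (probe set 10356520) measured 6.95, 7.23, 7.46, 7.51 and 7.85 in wild-type forelimbs and 6.56, 6.63, 7.13, 6.46 and 6.90 in wild-type hindlimbs. Knockouts gave 7.21, 7.45, 7.38, 6.56 and 6.85 in forelimbs and 6.80, 7.01, 6.65, 6.52 and 6.53 in hindlimbs. The wild-type groups overlapped through forelimb replicate 1 and hindlimb replicate 8, and the knockout groups overlapped widely. Col6a3 fell by 0.67 in wild type (SE 0.17, adjusted p = 0.0343), which was lost without WF3, WF4, WF5, WH6, WH7 or WH9 (0.0801 to 0.117). Col6a2 changed by -0.43 there (adjusted p = 0.0664).

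Col10a1 (probe set 10362495), a marker gene of hypertrophic chondrocytes, measured 4.50, 4.65, 4.60, 4.77 and 4.73 in wild-type forelimbs and 4.44, 4.15, 4.23, 4.50 and 4.32 in wild-type hindlimbs. Knockouts gave 4.58, 4.21, 4.41, 4.28 and 4.52 in forelimbs and 4.08, 4.43, 4.40, 4.18 and 4.39 in hindlimbs. The wild-type groups met at 4.50 and the knockout groups overlapped. The gene fell by 0.32 in wild type (SE 0.088, limma adjusted p = 0.0437), at levels below the array medians on every array. The call was lost in 9 of 20 leave-one-out fits (adjusted p from 0.051 to 0.126), those without any 1 of WF2 to WF5, WH6, WH7, WH8, WH10 or KH8. The count of 8 in wild type became 5 without WF3, WF4, WH6 or WH9, 4 without WF5, and 5 when the Y-linked level was added as a covariate.

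**Figure D3:**
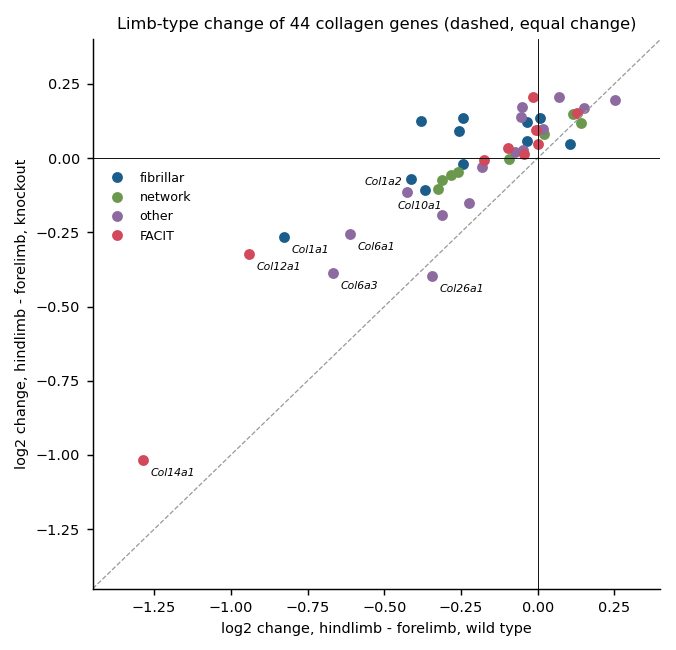
Log2 change from forelimb to hindlimb of each of the 44 collagen genes in wild type (horizontal) against knockouts (vertical), coloured by class, with the 8 genes that passed in wild type named and a dashed line of equal change. Col26a1 lies nearest the line among the named genes, with -0.34 and -0.40, and Col14a1 is farthest out, with -1.29 and -1.02.

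Seen over the 4 groups, wild-type forelimbs had the highest mean in 28 of 44 members, against 27.6% of all genes. Wild-type hindlimbs were highest in 9 (against 25.3% of all genes), knockout hindlimbs in 6 (26.5%) and knockout forelimbs in 1, Col26a1 (20.5%). The lowest mean was that of knockout forelimbs in 22 members and of knockout hindlimbs in 15. The share of all genes was not computed for the lowest mean. In the 32 members that never passed, the forelimb genotype changes ran from -0.44 to 0.03 and the hindlimb ones from -0.15 to 0.17.

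The arrays of a group also differed together across the members. Of the 12 genes that passed, WF1 was the lowest array of its group in 11 and WF5 the highest in 9. In the other groups KF4 was lowest in 10 and KF3 highest in 8, WH9 lowest in 7 and WH8 highest in 8, and KH9 lowest in 7 and KH7 highest in 10. The mean of 14 skeletal muscle markers was lowest of its group in WF1, KF4 and WH9, at 7.67, 7.33 and 6.93, and highest in WF5, WH8 and KH7, at 8.14, 7.39 and 7.43. It was not at an extreme in KF3 or KH9, which ranked 4 and 3 of 5 from the lowest, and KH6, with the lowest muscle mean of its group, was lowest in 1 of the 12 genes. In deviations from the group means, the correlation with the muscle mean was 0.19 in Col23a1 and in Col10a1 and 0.45 in Col26a1. In the rest of the 12 genes it ran from 0.67 in Col14a1 to 0.92 in Col3a1. The 12 genes are therefore not independent of each other.

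Muscle markers differed between the groups as well. Their mean was 7.92 ± 0.22 in wild-type forelimbs (range 7.67 to 8.14), 7.53 ± 0.15 in knockout forelimbs (7.33 to 7.70), 7.23 ± 0.19 in wild-type hindlimbs (6.93 to 7.39) and 7.20 ± 0.15 in knockout hindlimbs (7.05 to 7.43). Of the 14 genes, 3 (Acta1, Tnnt3 and Ckm) fell in knockout forelimbs (against 1.03% of all genes) and none in knockout hindlimbs (against 0.231% called). All 14 were lower in wild-type hindlimbs than forelimbs (against 2.49%). With that mean as a covariate no collagen gene passed in forelimbs or between limb types in wild type, and Col1a1, Col1a2, Col6a1 and Col6a3 turned to 0.16, 0.16, 0.11 and 0.23 from forelimb to hindlimb (limma, adjusted p = 1 for each). Because the covariate differs between the groups it also takes out part of any group difference, so these fits do not separate muscle content from genotype or limb type.

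**Figure D4:**
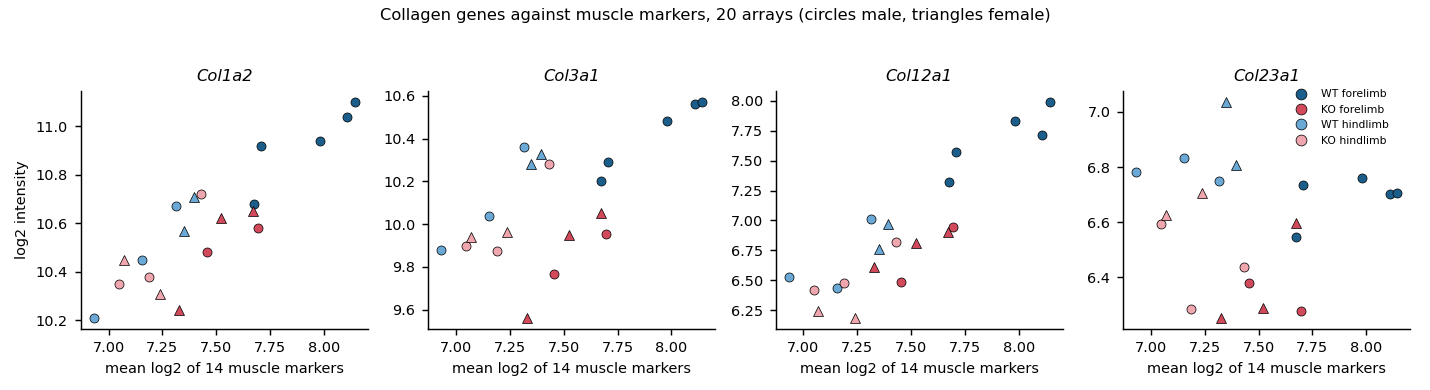
Log2 intensity of Col1a2, Col3a1, Col12a1 and Col23a1 (vertical) against the mean log2 level of 14 skeletal muscle markers (horizontal) on the 20 arrays, coloured by group, circles male and triangles female. The 5 wild-type forelimbs lie at 7.67 to 8.14 on the muscle axis, all above the hindlimbs, and hold the 5 highest Col12a1 levels and the 3 highest Col3a1 levels.

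Markers of some other cell types moved with the groups too, and beyond muscle their part in the collagen values was not tested. Of 5 measured osteoblast and perichondrium markers 3 fell in knockout forelimbs (against 1.03% of all genes), with log2 changes of -0.45 for Sp7, -0.55 for Alpl and -2.40 for Ibsp and with a list median of -0.45. The list's mean, to whose difference Ibsp adds most, was 5.27 ± 0.34 in wild-type forelimbs (range 4.70 to 5.54) against 4.46 ± 0.047 in knockout forelimbs (4.41 to 4.52), 4.54 ± 0.10 in wild-type hindlimbs (4.41 to 4.65) and 4.46 ± 0.075 in knockout hindlimbs (4.33 to 4.53). Of 7 tendon markers 3 fell in knockout forelimbs, with changes of -1.02 for Tnmd, -1.55 for Thbs4 and -3.09 for Kera, and 1, Kera, fell in knockout hindlimbs, with -2.87 (against 0.231% of all genes). The list medians were -0.24 and -0.09, and the list means, to whose difference Kera adds most, were in forelimbs 7.44 ± 0.11 (7.25 to 7.51) against 6.57 ± 0.17 (6.33 to 6.76), and in hindlimbs 6.93 ± 0.21 (6.57 to 7.10) against 6.39 ± 0.13 (6.26 to 6.61). None of 10 cartilage markers passed in any comparison of genotypes, with means of 6.29 ± 0.44 (5.60 to 6.74) in wild-type and 6.01 ± 0.32 (5.52 to 6.36) in knockout forelimbs. The cartilage list median was -0.39 in forelimbs, with 9 of 10 changes below 0 (against 49.6% of all genes). In hindlimbs it was -0.01, with 5 of 10 below 0 (against 51.7%). Macrophage markers (2 of 6 lower in knockout forelimbs) ranged over 5.33 to 5.64 in wild-type and 5.17 to 5.49 in knockout forelimbs, and endothelial markers (1 of 7 lower) over 6.89 to 7.20 and 6.70 to 7.05. None of 8 epidermis and none of 4 Schwann cell markers passed in knockout forelimbs, with list medians of -0.12 and -0.17. Limb mesenchyme and patterning markers went the other way there, with 0 of 6 below 0 (against 49.6% of all genes) and a median of 0.23, and none passed. In hindlimbs their median was -0.05. Array intensities have no true zero, so no marker can be called absent.

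Genes whose products make, trim, cross-link, bind, sense or degrade collagen were read from a list. All of its genes but Fkbp10, Ctage5, Adamts2, Loxl2 and Gp6 were measured, which left 61. Over both limb types 6 fell and none rose in knockouts (9.84%, against 1.57% and 0.466% of all genes), with a list median of -0.09. They were spread over the steps of the pathway, 1 of 18 in chain modification and folding, 1 of 5 in secretion, 2 of 7 in propeptide cleavage, 1 of 4 in cross-linking and 1 of 9 receptors, with 0 of 9 fibril-bound partners and 0 of 9 breakdown genes. Those last 2 steps differed in their medians, -0.21 for the fibril-bound partners (8 of 9 below 0) and -0.04 for the breakdown genes (6 of 9). In forelimbs 3 of the 61 genes fell and none rose (against 1.03% and 0.241%), and in hindlimbs none passed (against 0.231%). Between limb types 7 were lower in wild-type hindlimbs (against 2.49%) and 2 in knockout hindlimbs (against 0.441%), with none higher.

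Of the 6 calls over both limb types, the 2 in propeptide cleavage held whichever array was left out. Adamts3, which encodes a procollagen N-proteinase, fell by 0.36 over both limb types (SE 0.077, limma adjusted p = 0.0136), and Pcolce, which encodes an enhancer of the C-proteinase, by 0.23 (SE 0.05, adjusted p = 0.0136). Pcolce measured 7.85 ± 0.12 in wild-type and 7.58 ± 0.12 in knockout forelimbs, and 7.90 ± 0.10 and 7.70 ± 0.084 in hindlimbs. In forelimbs alone Adamts3 fell by 0.46 (adjusted p = 0.0391), a call lost without any 1 of WF2 to WF5 or KF2 to KF5 (0.0518 to 0.115). Adamts3 has several probe sets, and with the median of probe sets per gene its change over both limb types was -0.22 (adjusted p = 0.0811).

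Lox, which encodes the oxidase that starts collagen cross-links, had the largest change of the list's genes that passed over both limb types. It measured 8.17 ± 0.31 in wild-type and 7.48 ± 0.39 in knockout forelimbs, and 7.57 ± 0.48 and 7.03 ± 0.34 in hindlimbs. Lox fell by 0.61 over both limb types (SE 0.15, limma adjusted p = 0.0374), a call lost in 14 of 20 leave-one-out fits (0.0501 to 0.0803) and kept without WF1, WH9, KF1, KF3, KF5 or KH7. Thbs2, which encodes a matricellular protein that affects fibril shape, fell by 0.74 in forelimbs (SE 0.17, adjusted p = 0.0339), from 7.46 ± 0.29 to 6.72 ± 0.21 without overlap. That call was lost without WF2 to WF5, KF2, KF4 or KF5 (0.0546 to 0.12).

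Colgalt2, which encodes a collagen galactosyltransferase, fell by 0.48 in forelimbs (SE 0.095, limma adjusted p = 0.0107) and by 0.28 over both limb types (adjusted p = 0.03), the latter lost without WF3, WF4, WH7, KF2, KF4, KH6, KH9 or KH10 (0.0539 to 0.0668). Its mean level was under 5, where signal over background limits what can be seen. Creb3l1, which encodes a transcription factor of the secretory pathway that drives type I collagen in bone, fell by 0.39 over both (SE 0.094, adjusted p = 0.0308), and was kept in 9 of 20 such fits, those without WF1, WH6, WH9, KF1, KF3, KF5, KH7, KH8 or KH9 (lost at 0.0515 to 0.0696). Ddr2, a receptor kinase gene for fibrillar collagen, fell by 0.22 over both (SE 0.058, adjusted p = 0.0464). Its call was kept in 4 of 20 fits, without WF1, WH9, KF3 or KH7 (lost at 0.0506 to 0.0978). None of these 7 genes passed with male arrays only or with the muscle covariate.

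**Figure D5:**
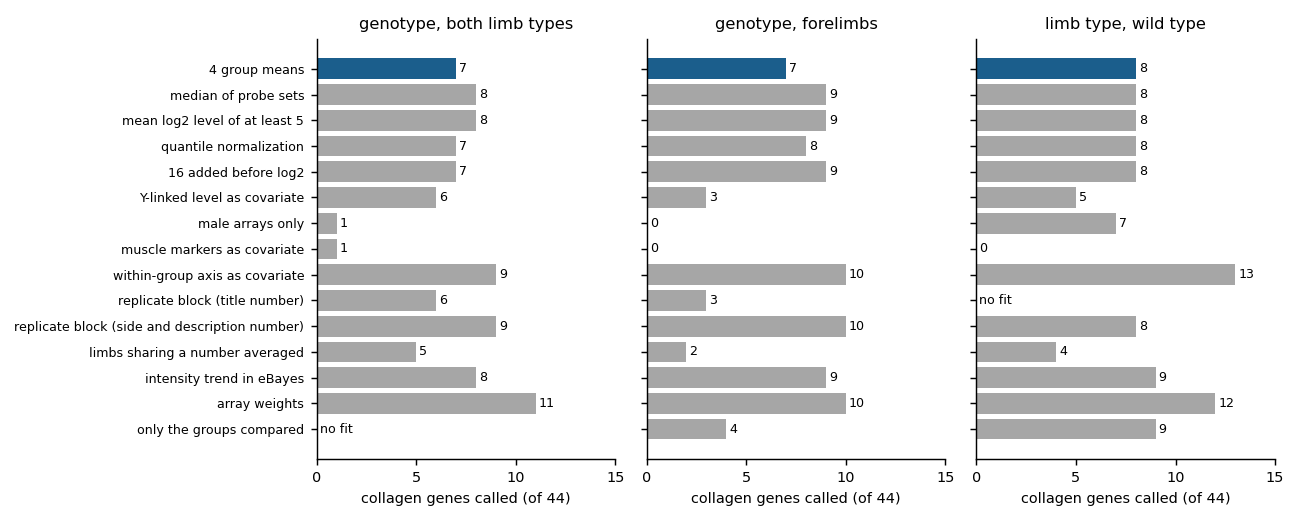
Number of the 44 collagen genes past the test (horizontal, from 0) for the genotype over both limb types, the genotype in forelimbs and limb type in wild type (panels), under the fit of 4 group means (blue) and 14 other settings (grey). The counts of 7, 7 and 8 drop to 1, 0 and 0 with the muscle covariate and rise to at most 11, 10 and 13 under other settings. The 13 came with the within-group axis, a covariate drawn from the spread within groups that takes out spread by construction.

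The plot of counts by setting shows how far the number of collagen genes past the test moves with the fit. For the genotype the number of changes below 0 moved less. With male arrays only, 38 of 44 over both limb types were below 0, as with all arrays, and with the muscle covariate 34 were. In forelimbs the numbers below 0 were 41 with all arrays, 37 with male arrays and 36 with the muscle covariate, and in no setting did a collagen gene rise in knockouts. For limb type in wild type, 32 of 44 were below 0 (against 44.35% of all genes), and 21 with the muscle covariate. The share of all genes below 0 was computed for the fit of 4 group means only. The members also move together, so these counts are a description and do not test how steady the direction is.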

How the data were processed

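The deposited table holds 1 intensity per probe set and array on a linear scale, from 1.65 to 13033, which the authors deposited and for which the submitters' processing notes name RMA. The RMA version, probe annotation and build were not given in the sources used here. RMA corrects background, quantile-normalizes and summarises probes over all arrays together, so a shift shared by most genes is taken out. Log2 of the deposited intensity was taken here. Probe sets of 1 gene symbol (21789 of 35512) were used, with names updated through RefSeq for 21698 by Entrez ID and 3 by accession and kept as the platform gives them for 88, and 1621 with several symbols and 12101 with none were left out. The probe set of highest mean stood for each of the 1001 genes with several.

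Group means of the 4 groups were fitted to all 19936 genes with limma 3.58.1 in R 4.3.3 (lmFit, contrasts, eBayes), and p-values were adjusted over all genes by the Benjamini-Hochberg method, with a threshold of 0.05. Motifs and tables were made in Python 3.11.15. On simulated data with changes of 0.3, 0.6 and 1.2 the fit recovered 65.7%, 97% and 100% of changed genes over both limb types, 35.8%, 86.6% and 100% in forelimbs and 34.3%, 88.1% and 100% in hindlimbs. Of the genes it called, 5.4%, 5.7% and 3.3% were unchanged ones. The simulated noise was normal and independent between genes and arrays, with the same change in both limb types. The real arrays shift together across genes, so these rates need not hold for them. The number of arrays limits the precision. The sex of each limb was read from Y-linked transcripts. Alternatives were other normalizations, filters, covariates, blocks and variance models, and leaving out each array. Values per array are given for members past the test in any comparison and for Col1a1, Col1a2, Col2a1, Col3a1, Col4a3 and Col4a4, and genes of the collagen pathway list past the test between genotypes are named. The members and lists were chosen with earlier results of these data known.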

Additional observations from a re-analysis of the deposited data

Results flagged for a closer look

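In 3 of 60 sets of 5 arrays (15 collagen genes in 4 groups) 1 array stood far from the other 4 by Dixon's ratio, and chance gives about 1 in 20. Col3a1 was 10.28 in knockout hindlimb replicate 7, above the others at 9.87 to 9.96. Col23a1 was 6.55 in wild-type forelimb replicate 1, below the others at 6.70 to 6.76, and 7.04 in wild-type hindlimb replicate 7, above the others at 6.75 to 6.83.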

How the results depend on the processing

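The count of collagen genes past the test was 7 over both limb types, 7 in forelimbs, 0 in hindlimbs, 0 for the difference between limb types, 8 between limb types in wild type and 2 in knockouts. Over both limb types it was 1 with male arrays only, 1 with the muscle covariate and 11 with array weights, and 5 to 11 when 1 array was left out. In forelimbs it was 3 with the Y-linked covariate, 0 with male arrays only, 0 with the muscle covariate, 2 with limbs of a shared number averaged, 4 with only the groups compared, and 2 to 11 without 1 array. Between limb types in wild type it was 5 with the Y-linked covariate, 0 with the muscle covariate, 13 with the within-group axis as covariate, 4 with averaged limbs, and 4 to 10 without 1 array. In knockouts it was 1 with the Y-linked covariate, 0 with male arrays only, 1 with the muscle covariate (Col3a1, higher in hindlimbs, and neither of the 2 lower genes), 0 with only the groups compared, and 1 to 2 without 1 array. In hindlimbs and for the difference it was 0 in all fits run. With the muscle covariate the wild-type limb-type changes of Col1a1, Col1a2, Col6a1 and Col6a3 turned to 0.16, 0.16, 0.11 and 0.23. The within-group axis is the main direction of the deviations from the group means, over all genes but the members (19.05% of their variance). By construction it leaves each change as it was and takes out spread within groups, so a higher count with it is in part built in. Apart from the block on the title number, given next, the other alternatives kept each collagen count within 1.5 times.

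Whether the replicate numbers pair the arrays was not settled by correlations, which were mixed in sign. Correlations of deviations from the group means ran from -0.31 to 0.26 over 10 pairs of one title number across genotypes and from -0.23 to 0.23 over 10 pairs of one side and number across limb types, 4 of each being over 0.1. Over 8 left and right limbs of one number within a group they ran from -0.41 to 0.02, where deviations lean negative by construction, and 4 of these 8 pairs differed in sex by their Y-linked transcripts. Averaging those limbs leaves fewer samples in the fit. With the title number as a block the collagen counts were 6 over both limb types, 3 in forelimbs and 0 in hindlimbs, with 356, 231 and 43 genes in all. With side and number as a block they were 9, 10, 0, 0, 8 and 2 in the order above, with 393, 275, 46, 2, 628 and 115 genes in all.

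Counts over all genes moved more. They were 406 over both limb types, and 67 with male arrays, 117 with the muscle covariate, 651 with the axis, 216 averaged and 768 with weights (260 to 595 without 1 array). In forelimbs they were 253, and 139 with the Y-linked covariate, 37, 46, 473 and 128 with male arrays, the muscle covariate, the axis and averaging, and 163 with only the groups compared (124 to 436). In hindlimbs they were 46, and 13 with male arrays, 70 with the axis and 82 with weights (33 to 54). For the difference they were 4, and 2 with a mean of at least 5 or quantile normalization, 0 with male arrays, the muscle covariate or averaging, and 9 with weights (1 to 10). Between limb types they were 650 in wild type, and 419, 11, 1144, 330 and 1260 with male arrays, the muscle covariate, the axis, averaging and weights (311 to 848). In knockouts they were 123, and 13, 39, 210, 210 and 44 with male arrays, the muscle covariate, the axis, weights and only the groups compared (60 to 140). Fits with fewer arrays have fewer degrees of freedom, and the axis takes out spread within groups by construction. For the other settings the cause was not tested. Of the 44 members 8 had a mean under 5, where signal over background limits what can be seen.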
